A study of Rattus norvegicus with 24 samples.

Results

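A block of 34 neighbouring gene lines close to the end of the count table held 21759800 of the 303706587 reads counted in 24 rat brain libraries, or 7.16% of all counts on 0.104% of the 32662 gene lines. The block was selected on its counts. The counts of each gene were summed over all 24 libraries, the 20 most counted genes were taken, and the 10 of them past line 32000 had a median line of 32382.5. All 10 lay within 50 lines of that median, and every line from the first to the last of them, 32367 to 32400, was taken as a member. The height of these counts is therefore what chose the lines and is given as a description. The libraries were made from brain tissue of 60-day-old rats of a pair of strains bred for how strongly they respond to novelty, the High Responder and the Low Responder strain. From each strain there were 6 libraries of the amygdala and 6 of the dorsal raphe, all poly-A libraries prepared from total RNA (Qiagen miRNeasy extraction), and no group was given a treatment in the labels. The labels do not say that the libraries come from separate animals or from pooled tissue, nor give the sex, so the p-values here reflect only how far these libraries spread, which may be technical.

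The block was put forward under the name of the mitochondrial genome, and that name could not be checked here. The tables pair each gene ID with a count and hold no gene symbol, chromosome or position. None of the 32662 IDs matched the RefSeq gene table at hand, so 0 of the 34 members received a symbol, and that table's 47357 entries included 0 on the mitochondrial genome. The members are therefore called by their IDs and table lines, and no role is given to any of them. For the same reason the amygdala and the dorsal raphe were not checked against marker genes of their cell types. As background only, the mitochondrial genome of a mammal is a small circle that is copied into long transcripts from both strands. Transfer RNA genes lie between most of its other genes and are cut out, which releases the messenger RNAs for subunits of the respiratory chain and of ATP synthase and the ribosomal RNAs. Because neurons draw on respiration for firing and for transmission at synapses, such messenger RNAs are abundant in brain.

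Counts in the block were split between 2 very unequal kinds of line. Of the 34 lines, 15 held at least 23399 counts over the 24 libraries, and the other 19 held 215 counts between them. The 10 lines that met the rule held 97.3% of the block's counts and took 8 of the 10 highest places in the series. ENSRNOG00000034234 on line 32381 was the most counted gene of all, with 5233802 counts. It was followed within the block by ENSRNOG00000030700 on line 32388 with 2865725 counts, ENSRNOG00000031979 on line 32387 with 2381633 and ENSRNOG00000031766 on line 32400 with 2181736. ENSRNOG00000030371 on line 32384 held 1889984 counts, ENSRNOG00000031033 on line 32375 held 1769771, ENSRNOG00000030644 on line 32371 held 1596254 and ENSRNOG00000043866 on line 32369 held 1489997. The lowest of the 10 were ENSRNOG00000030478 on line 32367, the first line of the block, with 952864 counts and ENSRNOG00000029971 on line 32397 with 811711. Counts are not per length here, since no lengths were given, so the order of the counts is not an order of transcript levels.

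A further 5 lines were counted in every library without reaching the 20 most counted genes. ENSRNOG00000029042 on line 32398 held 319485 counts, ENSRNOG00000033299 on line 32386 held 85441, ENSRNOG00000031053 on line 32392 held 79946, ENSRNOG00000033615 on line 32390 held 77837 and ENSRNOG00000029707 on line 32393 held 23399. At the threshold of the rule, the 20th gene of the series stood at 693180 counts, the least counted line inside it, 32397, held 811711 and ranked 16th, and the most counted block line outside it, 32398, ranked 72nd. The lines next to the block, 32366 and 32401, held 2 and 55 counts, and line 32402 after them held 13893.

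The remaining 19 lines were close to silent in every group. On 8 of them no read was counted in any library, which allows up to 0.00988 counts per 1000000 counts (CPM) over the 24 libraries together. Another 5 held 1 to 5 counts, and 6 held between 7 and 72. The highest was ENSRNOG00000032882 on line 32382, next to the most counted gene, with 72 counts, of which 8 came from the High Responder amygdala, 9 from the Low Responder amygdala, 37 from the High Responder dorsal raphe and 18 from the Low Responder dorsal raphe. None of these 19 lines passed the filter on low counts, and none entered a test. Counted and silent lines alternated along the table, as the plot of counts by line shows: the 15 counted lines fell into 11 runs separated by 10 runs of silent lines, and 8 of the counted lines stood alone between silent ones. The longest counted run, lines 32386 to 32388, held 3 lines, and the longest silent run held 5.

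**Figure D1:**
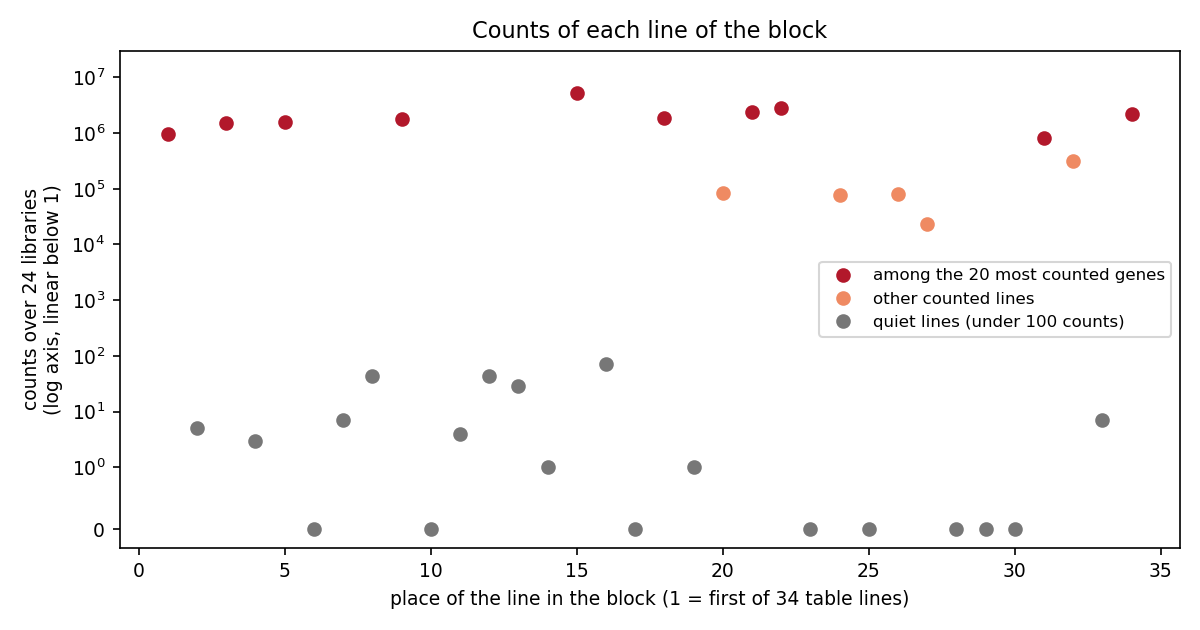
Counts summed over 24 libraries on a log axis for each of the 34 table lines of the block. The 15 counted lines stand at 23399 counts or more and fall into 11 runs separated by lines with 72 counts or fewer.

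Library totals ran from 9232983 to 20194601 counts, with 18455 to 19821 genes detected. At this depth the widest 95% Wilson interval of a library's block share spanned 0.0402 percentage points, and this covers counting error only, since the reads carried no molecular identifiers. The labels number the libraries of each group 1 to 6, and each table's header holds a library number of its own. Each group was split at the largest gap between its header numbers, and the libraries on either side are called earlier and later. Any set of numbers has a largest gap, so the split alone does not mark separate batches. In the amygdala, libraries 1 to 4 of both strains are the earlier ones. In the dorsal raphe, High Responder libraries 1 to 3 and Low Responder libraries 1 to 4 are. The sources used here do not say what the header numbers stand for.

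The share of a library's counts that fell in the block ran from 1.62% in Low Responder amygdala library 3 to 14.7% in Low Responder dorsal raphe library 5. In the High Responder amygdala the 6 shares were 7.07%, 8.11%, 3.00%, 5.97%, 6.42% and 5.97%, in the order of the library numbers, with a mean of 6.09% ± 1.72 (SD, n = 6). In the Low Responder amygdala they were 6.00%, 6.09%, 1.62%, 6.19%, 6.24% and 6.46%, with a mean of 5.43% ± 1.87 (SD, n = 6). Library 3 was the lowest in both amygdala groups, and the other 10 amygdala libraries lay between 5.97% and 8.11%, at 6.45% ± 0.672 (SD, n = 10).

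In the High Responder dorsal raphe the shares were 7.67%, 6.49%, 7.04%, 10.4%, 10.9% and 8.04%, with a mean of 8.42% ± 1.81 (SD, n = 6). In the Low Responder dorsal raphe they were 6.64%, 8.33%, 6.90%, 6.49%, 14.7% and 8.83%, with a mean of 8.65% ± 3.11 (SD, n = 6). Low Responder library 5 was the highest of all 24, and without it the other 11 dorsal raphe libraries stood at 7.97% ± 1.53 (SD, n = 11). The share moved with the header numbers in this region: the 7 earlier libraries lay at 6.49% to 8.33%, mean 7.08% ± 0.688 (SD, n = 7), and the 5 later ones at 8.04% to 14.7%, mean 10.6% ± 2.57 (SD, n = 5). In the amygdala the 8 earlier libraries stood at 5.51% ± 2.13 (SD, n = 8), with both libraries numbered 3 among them, and the 4 later ones at 6.27% ± 0.222 (SD, n = 4).

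**Figure D2:**
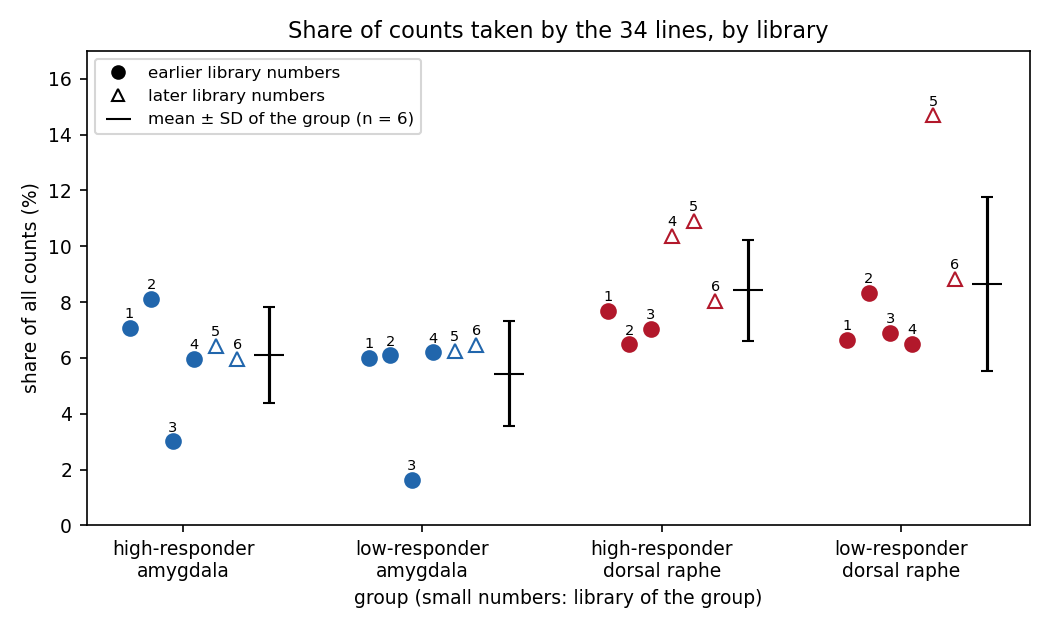
Percent of each library's counts that fell in the 34 block lines, by group, with the mean and SD of each group. Both amygdala libraries numbered 3, at 3.00% and 1.62%, lie below the rest, and Low Responder dorsal raphe library 5 lies above them at 14.7%.

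Both amygdala libraries numbered 3 were low across nearly all counted lines, but not evenly. Relative to the median of the other 5 libraries of its group, on CPM scaled by TMM (a scaling that evens out differences in composition between libraries), Low Responder library 3 stood at 0.0380 to 0.678 of their level, with a median over the 15 lines of 0.226, and was below all 5 others on 15 of 15 lines. High Responder library 3 stood at 0.0734 to 0.865, with a median of 0.502, and was below all 5 others on 14 lines. The share of all genes on which each library was below its other 5 was not computed. The counts of lines are therefore not read as particular to the block. The lowest ratios belonged to the same lines in both. Line 32393 was at 2.46 CPM in Low Responder library 3 against a median of 64.7 in the other 5, and at 5.84 CPM in High Responder library 3 against 79.7. Line 32375 was at 218.7 CPM against 5234 in the Low Responder group and at 1117 CPM against 5385 in the High Responder group. Line 32400 was at 348.7 CPM against 6674 and at 1845 CPM against 6944.

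Other lines were kept better in these libraries, though not always the same lines in both. In High Responder library 3 the highest ratios were on lines 32369, 32367 and 32390, at 0.865, 0.762 and 0.727. In Low Responder library 3 those lines stood at 0.674, 0.290 and 0.226. Line 32392 was at 169 CPM against 249.6 in the Low Responder group, a ratio of 0.678, and at 152 CPM against 271 in the High Responder group, a ratio of 0.559. Line 32397 was at 1454 CPM against 2538 and at 1375 CPM against 2605. The most counted gene, on line 32381, was at 6534 CPM against 14286 and at 7362 CPM against 14593, ratios of 0.457 and 0.504. Over the 15 lines, the log2 ratios of the libraries numbered 3 had a Pearson r of 0.815 and a Spearman rho of 0.825 between the strains. Against the ratios of Low Responder dorsal raphe library 5, the r was 0.05 for the High Responder and 0.02 for the Low Responder library. These are descriptions over lines that share their libraries and their scaling, and the lines are not independent.

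**Figure D3:**
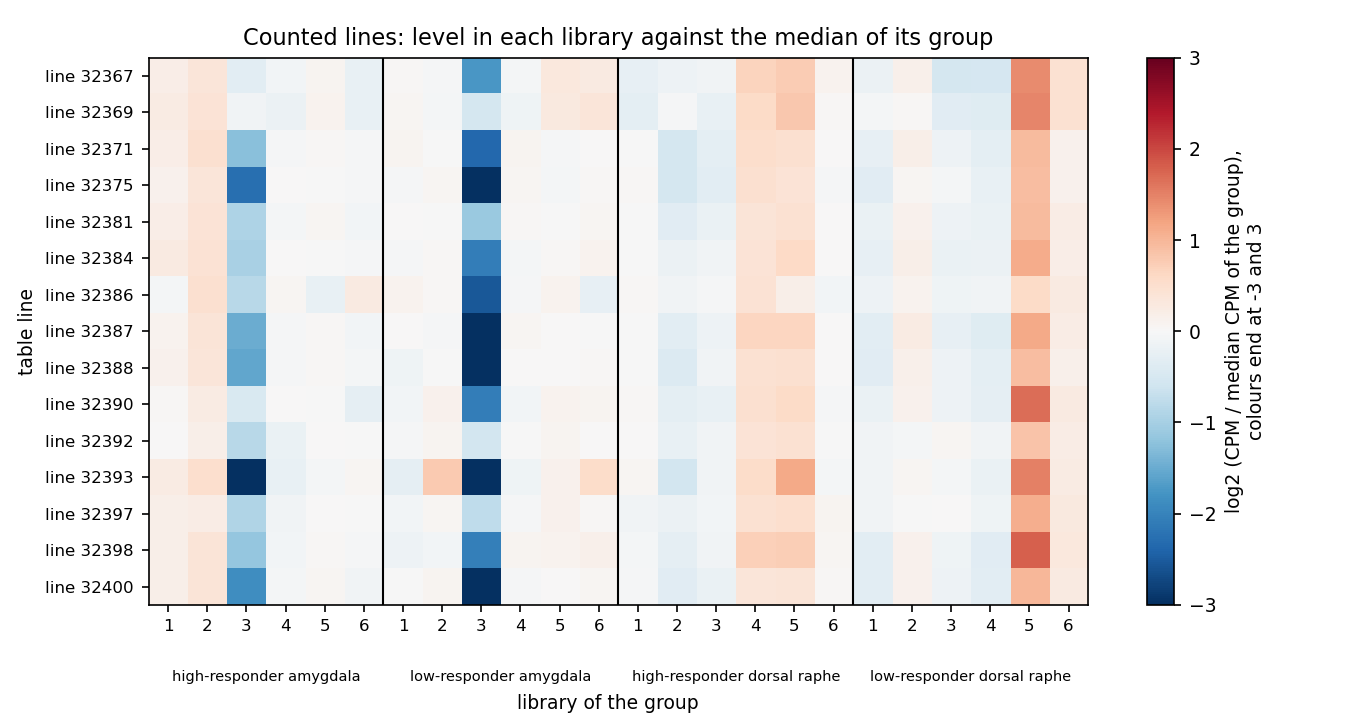
Each of the 15 counted lines in each of the 24 libraries, as the log2 ratio of its CPM to the line's median in the same group of 6. Low values run down the columns of both amygdala libraries numbered 3, deepest on lines 32375, 32393 and 32400, and high values down that of Low Responder dorsal raphe library 5.

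The libraries numbered 3 also differed from the rest in how the block's counts were divided among its lines. In the other 10 amygdala libraries line 32381 took 22.2% to 23.5% of the block's counts, and in the 12 dorsal raphe libraries 22.9% to 26.0%. In High Responder amygdala library 3 it took 25.4%, and in Low Responder amygdala library 3 it took 40.5%. Line 32369 took 6.08% to 8.14% in the other 10 amygdala libraries, 14.996% in High Responder library 3 and 17.8% in Low Responder library 3. The opposite was seen on line 32375, with 7.75% to 8.88% in the other 10, 3.85% in High Responder library 3 and 1.35% in Low Responder library 3. Of the 15 lines, 6 took a smaller and 7 a larger share in High Responder library 3 than in any of the other 10. In Low Responder library 3, 9 took a smaller and 4 a larger share than in any of them. The division varied elsewhere too. In the dorsal raphe line 32369 took 4.55% to 7.52%, line 32367 took 2.79% to 4.59% and line 32393 took 0.0776% to 0.159%. In Low Responder dorsal raphe library 5, line 32398 took 2.27% against 1.26% to 1.52% in the other 11 libraries of the region, and line 32390 took 0.490% against 0.319% to 0.3598%. On all 15 lines the ranges of the regions overlapped.

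**Figure D4:**
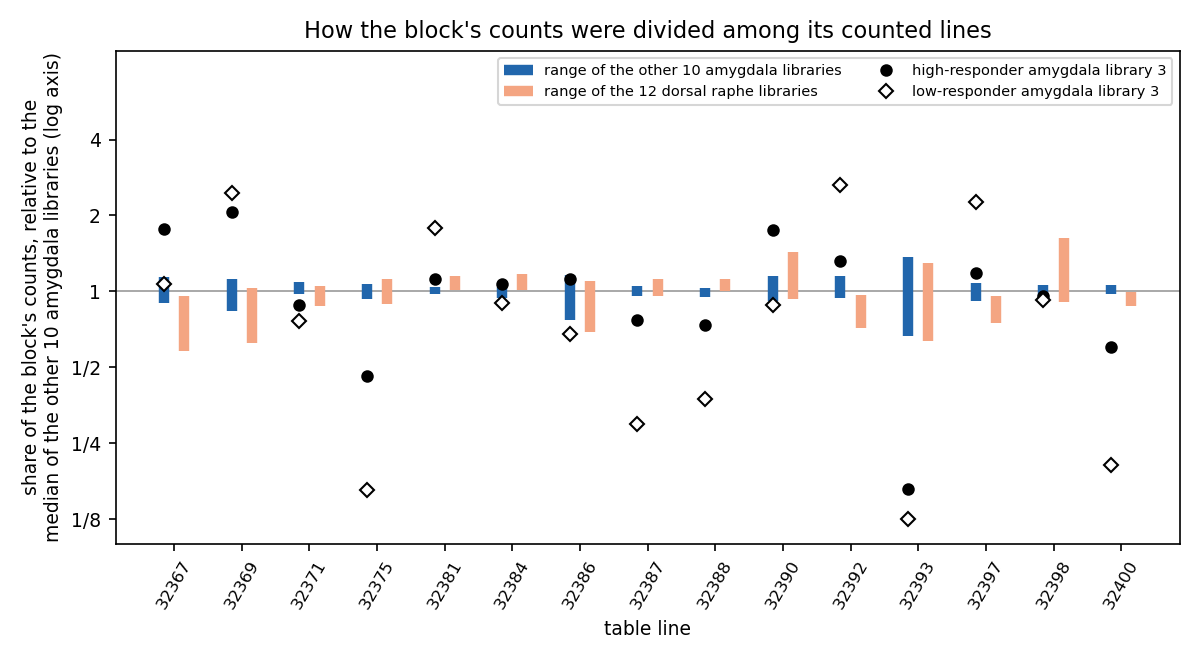
Share of the block's counts taken by each of the 15 counted lines, relative to the median of the 10 amygdala libraries not numbered 3, on a log axis. Bars give the range of those 10 libraries and of the 12 dorsal raphe libraries, and line 32375 lies far below both bars in the amygdala libraries numbered 3.

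Low Responder dorsal raphe library 5 was high on every counted line. It stood at 1.596 to 3.77 times the median of the other 5 libraries of its group, with a median of 2.21, and was above all 5 on 15 of 15 lines. It held the highest CPM of the 24 libraries on all 15. Line 32381 reached 36503 CPM there against a median of 17171 in the other 5, line 32388 reached 20799.5 against 9809.9, and line 32398 reached 3625 CPM. High Responder library 5 of this region was above the other 5 of its group on 11 lines, at 1.15 to 2.32 times their median, and High Responder library 4 on 4 lines, at 1.31 to 1.71 times. All 3 are later libraries. On 3 of the 15 lines every later dorsal raphe library was above every earlier one. The share of all genes was not computed for this count or for those of single libraries, so nothing is read from them.

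How far the counted lines spread within a group, beside other genes, depended in part on the libraries that stand apart. The median SD of log2 CPM within a group was 0.49 for the 15 lines in the High Responder amygdala, 0.86 in the Low Responder amygdala, 0.36 in the High Responder dorsal raphe and 0.50 in the Low Responder dorsal raphe. Over the 9908 other genes with a mean of at least 10 CPM it was 0.15, 0.16, 0.18 and 0.19. Without library 3, the median SD in the Low Responder amygdala was 0.06 for the 15 lines, below the 0.10 of the other genes, and 9 of the 15 lines were below that. It was 0.20 against 0.13 in the High Responder amygdala without library 3, and 0.22 against 0.14 in the Low Responder dorsal raphe without library 5. The median SD of the other genes was thus also lower without each of these libraries than with it. Among the 105 pairs of lines, the Pearson r of log2 CPM over the 12 amygdala libraries had a median of 0.940, from 0.610 between lines 32369 and 32392 to 0.999 between lines 32388 and 32400. Without both libraries numbered 3 the median was 0.780 over 10 libraries, the lowest pair was at -0.00404 and 17 of the 105 pairs stayed over 0.9, against 69 with them. Over the 12 dorsal raphe libraries the median was 0.945, with 85 pairs over 0.9, and over the 11 without Low Responder library 5 it was 0.903, with 55 pairs over 0.9. The libraries share depth and scaling, and with the block left out of the scaling the medians were 0.939 and 0.944. These values are descriptions only.

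Between the regions, which the first comparison takes up, the block was lower in the amygdala than in the dorsal raphe on 8 of the 15 lines tested, and no line was higher. The test was edgeR's quasi-likelihood test with Benjamini-Hochberg adjustment over 14977 genes and a threshold of 0.05, on the mean of both amygdala groups minus the mean of both dorsal raphe groups. Of all genes tested, 65.8% passed in this comparison and 34% passed as lower in the amygdala, so the regions differed on most genes. The share of the lines that passed, 53.3%, was below the 65.8% of all genes that passed in either direction. All of these lines passed as lower in the amygdala, and 53.3% was above the 34% of all genes that did so. The lines are not independent, so nothing is read from either contrast. All 15 log2 differences were below 0, from -0.70 to -0.21 with a median of -0.55, against a median of -0.02 over all genes. On none of the 15 lines were the groups of 12 apart without overlap, which 22.3% of all genes were. In bulk tissue, fewer cells of a type and less RNA per cell cannot be told apart.

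The most counted gene, on line 32381, had the lowest adjusted p of the block. Its level in the 12 amygdala libraries ran from 6534 CPM through a median of 14161 to 18726, and in the 12 dorsal raphe libraries from 15386 through 19477 to 36503. The highest amygdala libraries reached into the dorsal raphe range. Its log2 difference was -0.65 (SE 0.16), a level 1.57 times as high in the dorsal raphe, with an adjusted p of 0.000977 by edgeR. Over the other settings tried, that adjusted p ran from 0.000114 to 0.0699.

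Lines 32384 and 32388 had larger differences and wider spread. Line 32384 ran from 1206 through 5092 to 6928 CPM in the amygdala and from 5691 through 6802 to 14512 CPM in the dorsal raphe, for a log2 difference of -0.69 (SE 0.20; edgeR adjusted p = 0.00457, from 0.000949 to 0.130 over the other settings). Line 32388 ran from 775 through 8078 to 10444 CPM in the amygdala and from 7993 through 10584 to 20799.5 CPM in the dorsal raphe, for a log2 difference of -0.70 (SE 0.26; edgeR adjusted p = 0.0212, from 0.00163 to 0.242). Together with line 32381 these lines passed in all 24 fits that left out 1 library.

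The other 5 lines that passed did not do so in every such fit. Line 32398 ran from 209 through 875 to 1143 CPM in the amygdala and from 825 through 998 to 3625 CPM in the dorsal raphe, with a log2 difference of -0.70. Line 32387 ran from 521 through 6792 to 8849 CPM and from 6539 through 8129 to 19189 CPM, with a difference of -0.66. Line 32390 lay at -0.59, line 32371 at -0.55 and line 32386 at -0.49. The regions overlapped on each of these lines, and the lowest amygdala value of each was that of Low Responder library 3. By edgeR, the adjusted p of these 5 lines ran from 0.0175 on line 32398 to 0.0417 on line 32387, and each lost its call in 1 to 8 of the 24 fits that left out 1 library.

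The 7 lines that did not pass lay at log2 differences of -0.61 to -0.21. Line 32375 was at -0.61 (SE 0.32) with an edgeR adjusted p of 0.0948, and line 32400 was at -0.52 (SE 0.30) with 0.126. On both, the amygdala SD was raised by the libraries numbered 3: line 32375 stood at 4654 CPM ± 1943 (SD, n = 12) with them and at 5451 CPM ± 575 (SD, n = 10) without them, and line 32400 at 5945 CPM ± 2388 (SD, n = 12) and 6914.5 CPM ± 761 (SD, n = 10). Line 32397 lay at -0.29 (adjusted p = 0.0791 by edgeR). The smallest differences were on line 32367, at -0.24 (adjusted p = 0.333 by edgeR), line 32369, at -0.21 (0.306), and line 32392, at -0.21 (0.125). Line 32369 ran from 2875 through 4311 to 6217 CPM in the amygdala and from 3049 through 4374 to 10841 CPM in the dorsal raphe, so its medians were nearly level.

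The count of 8 lines depended on single libraries and on the header numbers. Without Low Responder dorsal raphe library 5, 3 lines passed, and without High Responder amygdala library 3 or without High Responder dorsal raphe library 4, 5 did. In these fits 65.9%, 65.2% and 64.9% of all genes passed, in that order. Without both amygdala libraries numbered 3 the count was 9 with a median log2 difference of -0.36, while 67.2% of all genes passed. Without these and Low Responder dorsal raphe library 5 it was 6 with a median of -0.25, and 2 lines turned to above 0. Of all genes, 67.6% passed there. Among the earlier libraries alone 0 of 15 lines passed by edgeR, 1 had an unadjusted p under 0.05 and the median was -0.29, with 2 lines above 0 and the highest at 0.19, while 59.1% of all genes passed. Among the later libraries alone 14 passed with a median of -0.79, while 61.4% of all genes passed. On all 24 libraries DESeq2 called 8 lines and 66.2% of all genes. The part of the header numbers and of the libraries that stand apart in the region difference was not tested beyond these fits.

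**Figure D5:**
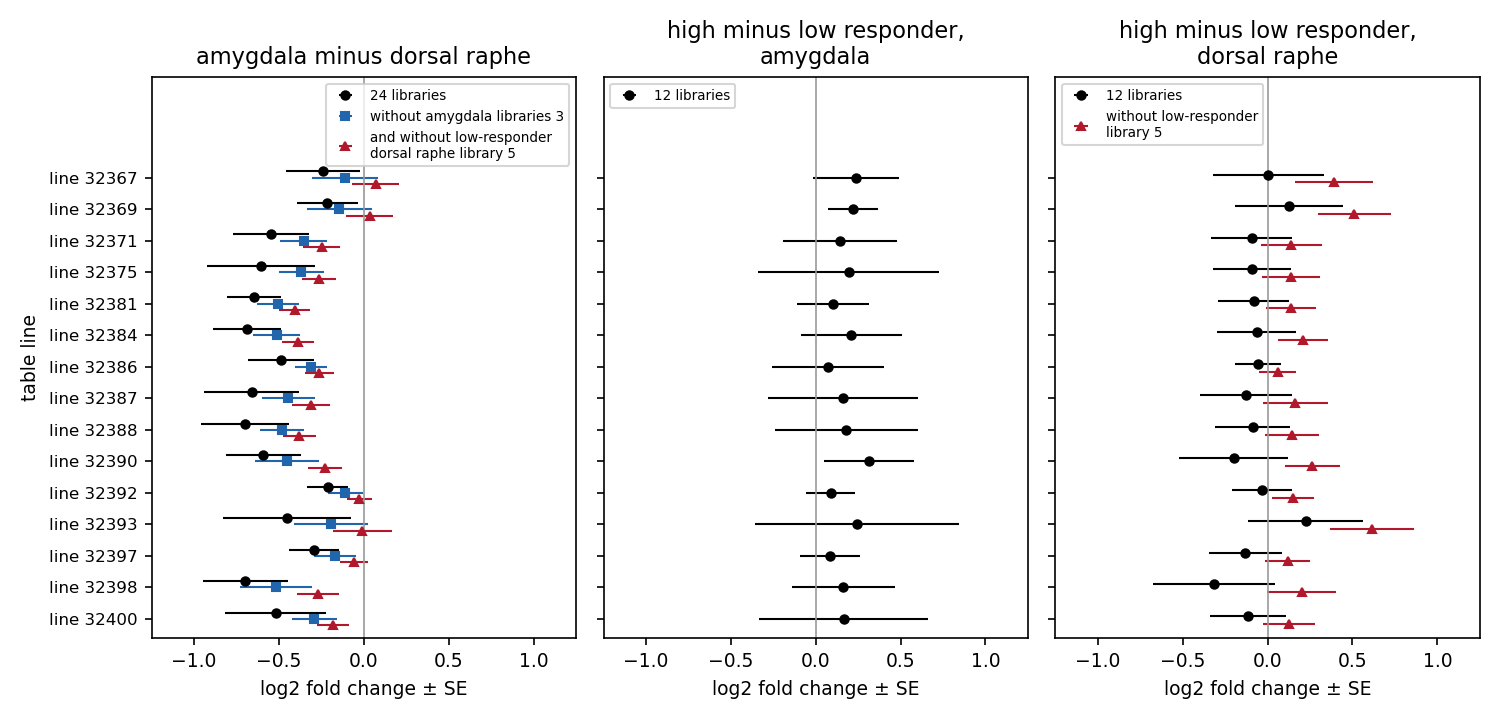
Log2 fold changes with their SE for the 15 counted lines, between the regions and between the strains in each region, with all libraries (black) and, between the regions and in the dorsal raphe, without libraries that stand apart (blue and red). The region differences all lie below 0 with all libraries. The strain differences in the dorsal raphe lie above 0 on all 15 lines once Low Responder library 5 is left out. Without High Responder library 5, which is not drawn, they lie below 0 on all 15.

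Between the strains in the amygdala no line of the block passed. DESeq2 called 0 of the 15 lines and 0.575% of all genes. By edgeR 0 lines passed and 0 had an unadjusted p under 0.05, while 0.021% of 14265 genes passed. Of those genes, 8.34% had an unadjusted edgeR p under 0.05. All 15 log2 differences, High minus Low Responder, were above 0, from 0.07 to 0.31 with a median of 0.16 and SEs from 0.15 to 0.60. Line 32381 ran from 7362 through 14089 to 18726 CPM in the High Responder and from 6534 through 14161 to 14780 CPM in the Low Responder amygdala, with a difference of 0.10 (SE 0.21). Line 32390 had the largest difference, 0.31 (SE 0.27), from 174 through 238 to 282 CPM in the High Responder and from 49.0 through 207 to 225 CPM in the Low Responder amygdala. The groups overlapped on every line. The direction changed with the libraries used. Without Low Responder library 3, 10 lines turned to below 0 and the median was -0.03, while without both libraries numbered 3, 14 lines stayed above 0 with a median of 0.11. Without High Responder library 2 the median was 0.06 and 2 lines turned, and among the later libraries alone 12 lines turned with a median of -0.04.

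In the dorsal raphe no line passed between the strains either. DESeq2 called 0 of the 15 lines and 0.271% of all genes. By edgeR 0 lines passed and 0 had an unadjusted p under 0.05, while 0.0625% of 14390 genes passed. Of those genes, 5.05% had an unadjusted edgeR p under 0.05. Of the 15 differences, 3 were above 0 and 12 below, from -0.32 to 0.22 with a median of -0.09 and SEs from 0.14 to 0.36. Line 32381 ran from 15386 through 19477 to 26889 CPM in the High Responder and from 16605.5 through 19052 to 36503 CPM in the Low Responder dorsal raphe, with a difference of -0.08 (SE 0.21). Line 32398 lay farthest below 0, at -0.32 (SE 0.36), and line 32393 farthest above, at 0.22 (SE 0.34). Without Low Responder library 5 all 15 differences were above 0, with a median of 0.15. There 0 lines passed, while 0.083% of all genes did. Without High Responder library 5, and among the later libraries alone, all 15 were below 0, with medians of -0.17 and -0.30. The SEs leave room for differences of either sign, so these libraries do not show that the strains are alike in the block.

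The strain difference was also compared between the regions, as the amygdala difference minus the dorsal raphe difference. By edgeR 0 of the 15 lines passed, 0 had an unadjusted p under 0.05 and DESeq2 called 0, while 0.00668% of 14977 genes passed. Of those genes, 3.06% had an unadjusted edgeR p under 0.05. The 15 values ran from 0.01 to 0.51 with a median of 0.23 and SEs from 0.24 to 0.75. Without Low Responder dorsal raphe library 5 the median was 0.00186 and 7 lines turned to below 0, and without Low Responder amygdala library 3 it was 0.03 and 3 lines turned. Without that dorsal raphe library and both amygdala libraries numbered 3, 14 of the 15 lines turned to below 0, with values from -0.38 to 0.01 and a median of -0.06.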

How the data were processed

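Poly-A RNA-seq of rat brain was deposited as 24 tables of whole-number counts per Ensembl gene ID. The submitters' processing notes name Trim Galore, STAR and the genome build rn6. The counting tool, its strand setting and its treatment of reads that map to several places are not given in the sources used here, so reads shared by overlapping or near-identical genes could be split or lost. Groups came from the sample titles. The members, the gene lists and the tests were chosen with earlier results of these data known. The gene lists drawn up by symbol could not be applied, since no ID matched a symbol. All lines of the block were described. Those among the 20 most counted genes, and any that passed a test, were named with values, and outside the block the 2 genes most and the 2 least like the block's share in each region, at a mean of at least 10 CPM. Counts were tested as deposited with edgeR 4.0.16 (filterByExpr, TMM, glmQLFit, glmQLFTest, Benjamini-Hochberg adjusted p under 0.05 over all genes) in R 4.3.3. Each SE is the log2 fold change over the square root of F. The strain comparisons were fitted on the 12 libraries of a region, and the others on all 24 libraries as 4 groups. Alternatives were RLE size factors, library size only, scaling without the block, other low count filters, DESeq2 1.42.0, a replicate block, earlier or later libraries alone, a term for them, and each library left out. The fits and spreads without the libraries that stand apart were added after the data were seen. The fitting code was tested on simulated counts. No pair of libraries within a group agreed within sampling noise.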

Additional observations from a re-analysis of the deposited data

Results flagged for a closer look

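Single libraries stood far from the other 5 of their group in 31 of 64 groups of 6 values examined, by Dixon's ratio of the gap to the nearest library over the whole range of the group, with a 95% critical value of 0.625. Chance gives about 1 in 20, or 3.2 of 64, for independent groups, and these groups are not independent, since the lines share libraries. All 31 came from the 3 libraries already seen to stand apart. Genes outside the block were not examined in this way.

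Low Responder amygdala library 3 gave 14 of them, all low, with ratios of 0.696 to 0.937. Its block share was 1.62%. Line 32367 was at 831 CPM there, line 32371 at 913, line 32375 at 219, line 32381 at 6534, line 32384 at 1206, line 32386 at 45.7 and line 32387 at 521 CPM. Line 32388 was at 775 CPM, line 32390 at 49.0, line 32392 at 169, line 32397 at 1454, line 32398 at 209 and line 32400 at 349 CPM. High Responder amygdala library 3 gave 2, also low: line 32375 at 1117 CPM and line 32388 at 2739 CPM.

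Low Responder dorsal raphe library 5 gave 15, all high, with ratios of 0.658 to 0.842. Its block share was 14.7%. Line 32367 was at 7324 CPM there, line 32369 at 10841, line 32371 at 11205, line 32375 at 12541, line 32381 at 36503, line 32384 at 14512 and line 32387 at 19189 CPM. Line 32388 was at 20799.5 CPM, line 32390 at 781, line 32392 at 453, line 32393 at 179.9, line 32397 at 5473, line 32398 at 3625 and line 32400 at 15523 CPM. What sets these 3 libraries apart was not tested.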

How the results depend on the processing

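Across the settings tried, the strain comparisons in each region and between the regions called 0 of 15 lines, as they did with the settings of the report. In those fits 0% to 0.575% of all genes passed. With so few genes passing, 0 of 15 lines is not read as a result about the block. Between the regions, 8 lines passed with RLE size factors, library size only, scaling without the block, other low count filters and DESeq2. In these fits 65.3% to 66.2% of all genes passed, apart from 43.9% with no filter beyond 1 count. The count was 0 among the earlier libraries, 14 among the later ones and 6 with a term for them, while 59.1%, 61.4% and 66.8% of all genes passed. It ran from 3 to 9 when 1 library was left out, while the share of all genes that passed ran from 64.0% to 67.1%. The causes were not tested. The block's mean share was 6.35% in the High Responder dorsal raphe without the most counted line, and 11.8% in the Low Responder dorsal raphe among its later libraries, 2 in number. Taking the single values of lines and the median of each fit together, 1833 were unchanged under the alternatives, while 30 line values lost and 9 gained a call. For a line, unchanged means on the same side of the threshold, and for a median a shift smaller than the spread within groups. All lost and gained calls were between the regions. With the replicate block, 8 lines passed between the regions with a median log2 difference of -0.65, while 62.9% of all genes passed. In the strain comparisons 0 lines passed with it, while 0.00668% to 0.0347% of all genes passed. The labels do not say that the numbers pair the libraries. Between strains, same-numbered libraries had a correlation of their deviations over 0.1 in 2 of 6 amygdala pairs and 3 of 6 dorsal raphe pairs. Between regions, 1 of 6 pairs in each strain did. In the same order, 2, 2, 1 and 0 of 6 correlated best with their own number. For the libraries numbered 3 the correlation between strains was 0.577 in the amygdala, the highest of the 6 pairs, and 0.483 in the dorsal raphe. Between regions it was -0.151 for the High Responder and 0.0375 for the Low Responder libraries numbered 3. On the 15 counted lines, counting error was small beside the spread between libraries. The exception was line 32393 in Low Responder amygdala library 3, with 32 counts. The 19 silent lines held too few counts to compare groups, and the reason was not tested.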

Other observations

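Outside the block, the genes whose log2 CPM followed the block's share most closely were looked up in each region apart, over 12 libraries, among the genes with a mean of at least 10 CPM. In the amygdala, of 9914 genes, ENSRNOG00000020595 (169.8 to 306.4 CPM) had a Pearson r of 0.9796 with the share and ENSRNOG00000001182 (27.8 to 69.2 CPM) 0.978. Without both libraries numbered 3, the 2 farthest in share, these values were 0.898 and 0.865. The lowest r belonged to ENSRNOG00000001629 (74.5 to 112 CPM) at -0.973 and ENSRNOG00000003999 (77.2 to 126 CPM) at -0.972, and without the same libraries they were -0.854 and -0.808.

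In the dorsal raphe, of 9962 genes, ENSRNOG00000010824 (41.7 to 80.9 CPM) had an r of 0.987 and ENSRNOG00000013865 (41.4 to 94.1 CPM) 0.985. The lowest were ENSRNOG00000029360 (318.7 to 550.8 CPM) at -0.991 and ENSRNOG00000017231 (26.2 to 47.0 CPM) at -0.984. Without Low Responder library 5 and High Responder library 5, the farthest in share, the 4 values were 0.956, 0.938, -0.977 and -0.932. The 4 genes of the amygdala were different from the 4 of the dorsal raphe. These genes were picked for their r out of all those compared, the libraries share depth and scaling, and the values carry no p.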
